A study of Mus musculus with 24 samples.

Results

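Mt1, Mt2, Mtf1 and Slc30a1 are the 2 main metallothionein genes of the mouse, the gene of the zinc-sensing transcription factor MTF-1, and the gene of the zinc exporter ZnT1. They were taken by symbol, 4 genes of the 47480 in the deposited count table, and all 4 passed the filter on low counts. The libraries came from wild-type mouse embryonic fibroblasts, connective tissue cells grown from embryos. The cells had received siCTRL or siCop1, read here as small interfering RNAs with no target and with Cop1 as target, together with DMSO or KL001, and were without or with Dexa. These 3 factors gave 8 groups of 3 libraries, 24 in all. DMSO is the usual solvent for small molecules, KL001 stabilises the cryptochrome proteins of the circadian clock, and Cop1 is the substrate receptor of a ubiquitin ligase. The labels write only "Dexa", a name left as it stands, and no source used here gives its dose or time.

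Metallothioneins are small cysteine-rich proteins that bind zinc, copper and cadmium and buffer free zinc in the cell. When zinc rises, MTF-1 binds it through zinc fingers and drives genes that carry metal response elements, among them Mt1, Mt2 and Slc30a1, so that zinc is both bound and pumped out. Glucocorticoids are a separate, well-known inducer of the mouse metallothionein genes. Slc30a1 was therefore set beside the metallothioneins as a second gene of the zinc-sensing arm, and the question here was whether the response to Dexa was shared by the 4 genes. No group was labelled as given zinc, so the response of Slc30a1 to zinc in these cells was not tested.

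Libraries held 21409988 to 27875023 counts. Cop1, listed under its older symbol Rfwd2, lay between 24.99 and 29.72 CPM, counts scaled to the library's adjusted total, in the 12 siCTRL libraries and between 4.33 and 5.79 CPM in the 12 siCop1 libraries. All 8 fibroblast markers were measured, with a summed level of 35019 to 50770 CPM. Markers of other cell types were low, each list at most 89.6 CPM in sum, and 6 of the 12 siCTRL libraries stood apart by their heart muscle markers, at 16.8 to 89.6 CPM in sum against at most 2.72 CPM in the other 18 libraries. Nothing in the labels says whether the 3 libraries of a group came from separate cultures, so p-values measure only the spread between these libraries, which may be technical.

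Mt2 and Mt1 are neighbours on chromosome 8 (GRCm38, GENCODE vM21), with Mt2 at chr8:94172664-94173568 and Mt1 at chr8:94179082-94180327, both on the plus strand and 5513 bases apart. Mtf1 lies at chr4:124802104-124849800 and Slc30a1 at chr1:191906767-191913247, also on the plus strand. The RefSeq promoter windows of all 4 genes, 300 bases from 250 before to 50 after the annotated start on GRCm38.p6, are printed because the metal response element is the sequence through which MTF-1 is known to act. Capitals mark each match to its core, searched as TGCACNC or TGCGCNC on both strands.
Mt1 (chr8:94178839-94179138, plus strand): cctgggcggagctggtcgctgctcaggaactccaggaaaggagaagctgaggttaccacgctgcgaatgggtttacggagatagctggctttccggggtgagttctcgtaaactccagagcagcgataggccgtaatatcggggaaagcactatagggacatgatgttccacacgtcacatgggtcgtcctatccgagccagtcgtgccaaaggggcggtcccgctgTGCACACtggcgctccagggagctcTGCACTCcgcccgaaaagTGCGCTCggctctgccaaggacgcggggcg
Mt2 (chr8:94172368-94172667, plus strand): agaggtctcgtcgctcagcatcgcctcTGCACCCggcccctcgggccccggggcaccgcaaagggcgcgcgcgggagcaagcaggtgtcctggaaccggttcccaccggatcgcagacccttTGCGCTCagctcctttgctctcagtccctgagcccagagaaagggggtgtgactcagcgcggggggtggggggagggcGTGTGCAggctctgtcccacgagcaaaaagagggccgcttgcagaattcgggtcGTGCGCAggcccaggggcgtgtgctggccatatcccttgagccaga
Slc30a1 (chr1:191906531-191906830, plus strand): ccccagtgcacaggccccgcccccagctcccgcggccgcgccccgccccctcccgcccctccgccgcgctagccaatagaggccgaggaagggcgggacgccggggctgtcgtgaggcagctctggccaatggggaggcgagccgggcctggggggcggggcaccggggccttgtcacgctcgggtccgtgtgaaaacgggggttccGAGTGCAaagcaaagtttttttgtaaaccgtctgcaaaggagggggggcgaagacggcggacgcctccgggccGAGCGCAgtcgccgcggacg
Mtf1 (chr4:124802299-124802598, plus strand): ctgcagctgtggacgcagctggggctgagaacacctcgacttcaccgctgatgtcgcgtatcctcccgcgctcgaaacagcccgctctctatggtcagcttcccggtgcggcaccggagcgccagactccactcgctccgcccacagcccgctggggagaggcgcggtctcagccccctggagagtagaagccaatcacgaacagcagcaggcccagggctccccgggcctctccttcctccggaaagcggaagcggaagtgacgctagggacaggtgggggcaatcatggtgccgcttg

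The Mt2 window held 4 matches to the metal response core, the Mt1 window 3, the Slc30a1 window 2 and the Mtf1 window 0. Of 32851 RefSeq promoter windows of the same length, 25.7% held at least 1 match, 1.97% at least 3 and 0.518% at least 4. The 3 Mt1 matches lay close together, starting at -23, 2 and 20 with the RefSeq start counted as 0. GENCODE lists 3 starts for Mt1, at -7, 122 and 152 counted from the RefSeq start, the last 2 beyond this window. Its 2 starts for Mt2 lie 46 and 242 bases after that gene's RefSeq start, at the end of the window and beyond it. Windows at other starts were not searched, so the match counts and positions hold for the RefSeq starts only. The full palindrome of the glucocorticoid response element, searched on both strands, was in none of the 4 windows and in 0.00913% of all windows. So rare a sequence would be absent from almost any 4 windows, and imperfect or partial sites were not searched. The antioxidant response core TGACNNNGC (both strands) had 1 match in the Mt2 window and 1 in the Slc30a1 window, and 12.4% of all windows held it. It did not overlap a metal response match in either. The E-box CACGTG was in 0 of the 4 windows and in 7.15% of all windows. These matches describe letters only, and distal elements were not searched.

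Without Dexa, metallothionein transcripts were already the most abundant of the 4 per length of mRNA. In siCTRL DMSO, Mt1 stood at 101 CPM per kilobase, Mt2 at 23.4, Mtf1 at 3.79 and Slc30a1 at 2.58 CPM per kilobase, using the length of the first listed transcript of each gene. With Dexa the same order held, at 404, 214, 3.72 and 2.397 CPM per kilobase. These levels rest on 1279 to 6357 reads per library for Mt1, 223 to 3436 for Mt2, 571 to 790 for Mtf1 and 292 to 389 for Slc30a1. The remaining metallothionein genes, Mt3 and Mt4, had at most 2 and 5 reads in a library and were not tested.

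**Figure D1:**
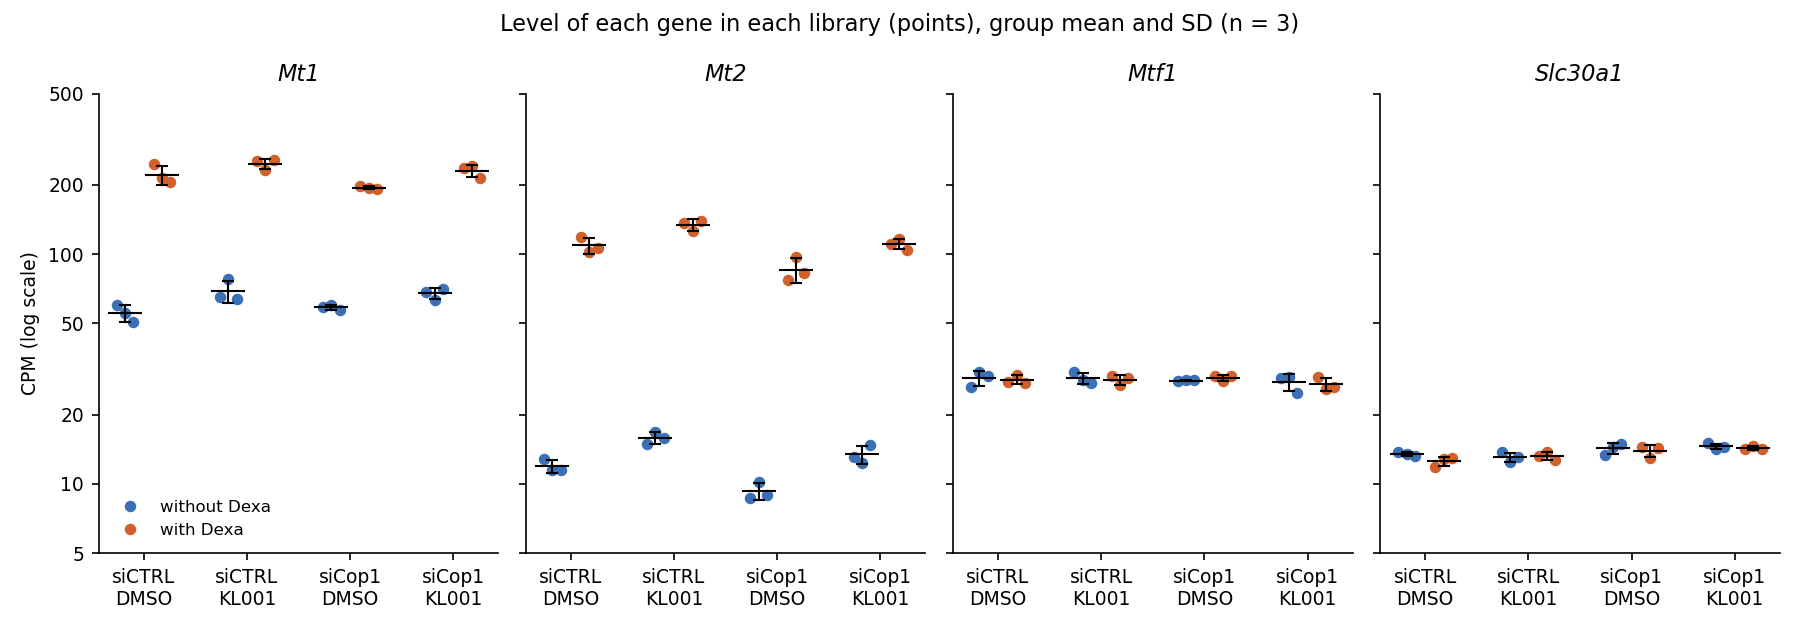
Level of Mt1, Mt2, Mtf1 and Slc30a1 in CPM on a log scale, in the 4 combinations of siRNA and compound, without Dexa (blue) and with Dexa (orange). Each point is a library, and black bars are the group mean and SD (n = 3). With Dexa the 12 libraries lay between 191.9 and 256 CPM for Mt1 and between 76.9 and 140 CPM for Mt2, above every library without Dexa. Over all settings together, the libraries with and without Dexa overlapped for Mtf1 and Slc30a1. Within siCTRL DMSO those of Slc30a1 did not, and the libraries with Dexa were lower.

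Dexa raised both metallothionein transcripts in every setting and left no detectable change in Mtf1 or Slc30a1. Mt2 rose by 8.24- to 9.20-fold and Mt1 by 3.32- to 4.0-fold across the 4 combinations of siRNA and compound. In bulk RNA, more transcript per cell and more cells that make it cannot be told apart.

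Mt1, one of the pair of broadly expressed metallothioneins, stood at 60.2, 55.2 and 50.8 CPM in the 3 siCTRL DMSO libraries without Dexa. It stood at 246, 214 and 205 CPM in the 3 with Dexa. The groups did not overlap, and the lowest library with Dexa was far above the highest without. The fitted log2 change was 2.0 (95% interval 1.84 to 2.16; adjusted p = 1.81e-14 by the quasi-likelihood test of edgeR after Benjamini-Hochberg adjustment over all genes). With KL001 in siCTRL, Mt1 was at 65.0, 77.8 and 63.7 CPM without and 254, 232 and 256 CPM with Dexa, a log2 change of 1.85. In siCop1 DMSO it was at 58.8, 60.1 and 57.3 CPM without and 198, 195 and 192 CPM with Dexa, a log2 change of 1.73. In siCop1 KL001 it was at 68.7, 63.5 and 70.7 CPM without and 236, 241 and 214 CPM with Dexa, a log2 change of 1.77. Every library with Dexa was above every library without it, over all 24.

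Mt2, the other widely expressed metallothionein, started from a lower level. Its 3 siCTRL DMSO libraries without Dexa stood at 12.9, 11.5 and 11.5 CPM, and those with Dexa at 119, 102 and 106 CPM. These groups were also separate, and the log2 change was 3.19 (95% interval 3.00 to 3.38; adjusted p = 2.39e-17 by the same test). In siCTRL KL001, Mt2 went from 14.9, 16.9 and 15.9 CPM to 137, 126 and 140 CPM with Dexa, a log2 change of 3.08. In siCop1 DMSO it went from 8.72, 10.2 and 8.99 CPM to 76.9, 97.2 and 82.7 CPM, a log2 change of 3.20. In siCop1 KL001 it went from 13.1, 12.4 and 14.8 CPM to 111, 116 and 105 CPM, a log2 change of 3.04. Both genes passed the test in 4 of 4 settings. Among all 14772 genes tested, the share changed with Dexa was 26.8% in siCTRL DMSO, 26.8% in siCTRL KL001, 23.7% in siCop1 DMSO and 24.5% in siCop1 KL001, so that a call in itself was common. The 5 squamous epithelium markers summed to 5.80 to 15.4 CPM without and 3.58 to 76.5 CPM with Dexa, and their part in these results was not tested. By size of log2 change in siCTRL DMSO, Mt2 was 40th and Mt1 128th of the 14772 genes, counted in either direction.

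Slc30a1, whose protein exports zinc across the plasma membrane, stood at 13.8, 13.6 and 13.2 CPM in siCTRL DMSO without Dexa and at 11.9, 12.8 and 12.99 CPM with Dexa. These 2 groups did not overlap, with the libraries with Dexa lower. The fitted log2 change was -0.11 (95% interval -0.23 to 0.02) and did not pass the test (adjusted p = 0.242). In the other settings the groups overlapped. Slc30a1 was at 13.7, 12.5 and 13.1 CPM without and 13.3, 13.8 and 12.8 CPM with Dexa in siCTRL KL001. It was at 13.4, 14.5 and 14.9 CPM without and 14.5, 12.99 and 14.4 CPM with Dexa in siCop1 DMSO, and at 15.01, 14.2 and 14.5 CPM without and 14.2, 14.6 and 14.2 CPM with Dexa in siCop1 KL001. The log2 changes in these settings were 0.02, -0.03 and -0.02, with adjusted p of 0.885, 0.795 and 0.850. The 95% intervals of all 4 settings ran from 0.852- to 1.11-fold, and so held no rise beyond 1.11-fold.

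Mtf1, the transcript of the zinc sensor, was at 26.4, 30.7 and 29.6 CPM without and 27.8, 29.9 and 27.5 CPM with Dexa in siCTRL DMSO. Over all 24 libraries its level ran from 24.9 to 30.7 CPM without Dexa and from 25.9 to 29.9 CPM with Dexa, overlapping in every setting. The log2 changes were -0.02, -0.02, 0.04 and -0.03, and the lowest adjusted p was 0.712. Their 95% intervals ran from 0.898- to 1.125-fold. The activity of MTF-1 protein, which zinc sets, was not measured.

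Within a library the ratio of one gene's reads to another's does not depend on scaling between libraries, so the 4 genes were also compared by ratio. The Dexa response of Mt2 exceeded that of Slc30a1 by 3.16 on the log2 scale, averaged over the 4 settings, and that of Mt1 exceeded it by 1.87. Reads of Mt1 outnumbered those of Slc30a1 by 3.85 to 6.24 in libraries without Dexa and by 13.3 to 20.6 with Dexa. For Mt2 over Slc30a1 the ratio was 0.603 to 1.35 without and 5.29 to 10.96 with Dexa. The ranges were separate for both ratios. Each difference had p = 1.25e-05 in a two-sided exact permutation test with Dexa labels permuted within settings (160000 arrangements), the smallest this design can give, and p = 2.81e-05 adjusted over the 9 ratio tests.

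The metallothionein pair also shifted in composition. There were 4.01 to 6.74 reads of Mt1 for each of Mt2 without Dexa (median 4.79, 12 libraries) and 1.83 to 2.57 with Dexa (median 2.05). Put as a share, Mt2 made up 12.9% to 19.96% of the reads of both genes without Dexa and 28.0% to 35.3% with Dexa. The 2 ranges did not overlap. Averaged over settings, the log2 ratio of Mt1 to Mt2 fell by 1.29 (range over settings -1.47 to -1.19), with the same exact permutation p as above. Mt1 and Mt2 share no stretch of 50 bases, the read length, in their annotated transcripts.

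**Figure D2:**
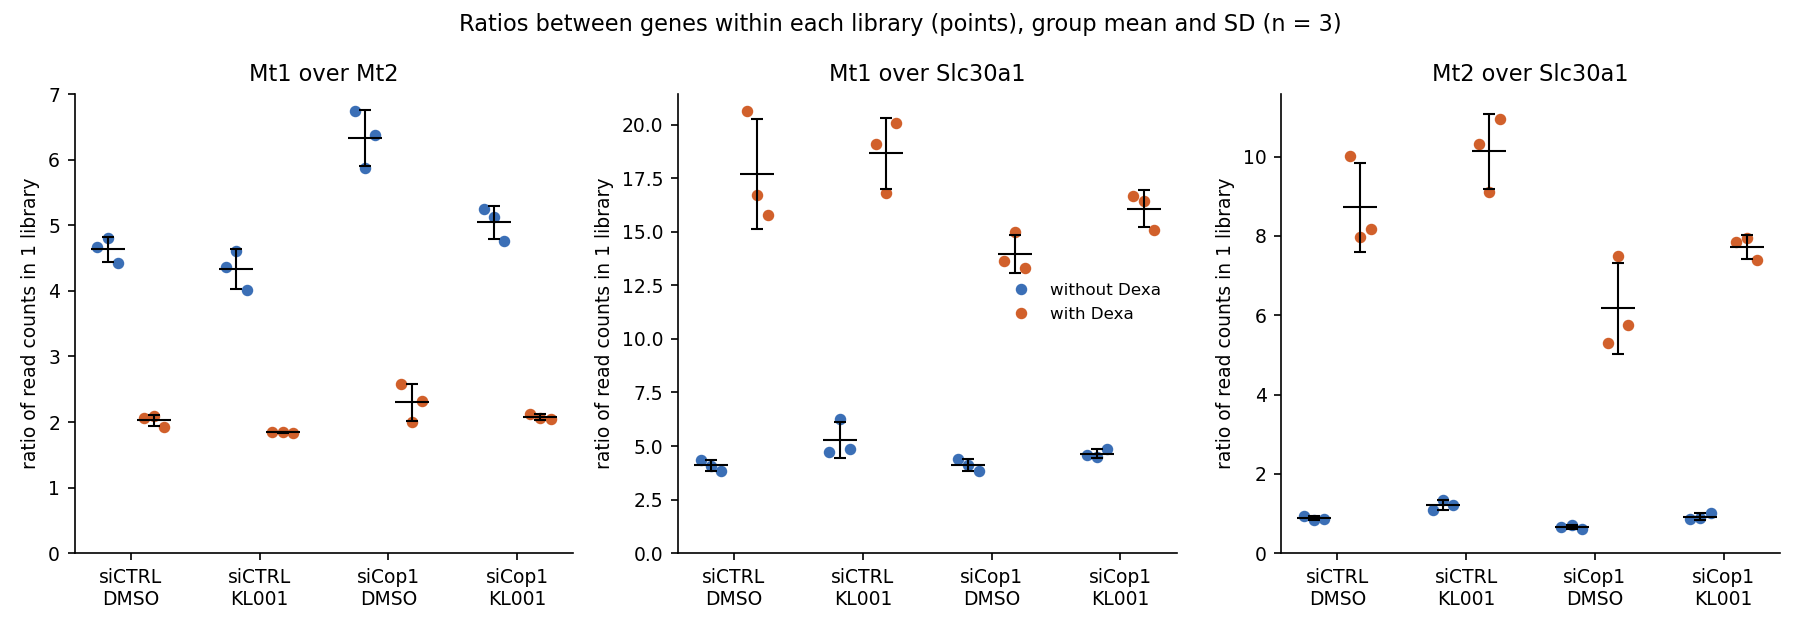
Ratio of read counts between pairs of the genes within each library: Mt1 over Mt2, Mt1 over Slc30a1 and Mt2 over Slc30a1, by setting, without (blue) and with Dexa (orange). Points are libraries, and bars are the group mean and SD (n = 3). The ratio of Mt1 to Mt2 lay at 4.01 or above without Dexa and at 2.57 or below with Dexa, while both ratios to Slc30a1 were higher with Dexa in every setting.

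siCop1 lowered Mt2 modestly and gave no call for Mt1 or Mtf1. Mt2 was lower with siCop1 in all 4 settings, by log2 changes of -0.36 in DMSO and -0.24 in KL001 without Dexa, and of -0.35 in DMSO and -0.28 in KL001 with Dexa. As the library values above show, the siCTRL and siCop1 libraries of Mt2 did not overlap in any setting; in DMSO without Dexa, for example, the siCTRL libraries lay at 11.5 CPM or above and the siCop1 libraries at 10.2 CPM or below. It passed the test in 3 of 4 settings, with adjusted p of 0.0358 (DMSO, no Dexa), 0.00071 (DMSO with Dexa) and 0.00477 (KL001 with Dexa), and missed it at 0.118 with KL001 and no Dexa. Of all genes tested, siCop1 changed 29.4% without Dexa and 31.1% with it in DMSO, and 32.7% without and 30.1% with it in KL001. Calls with Dexa held when each library was left out. The call in DMSO without Dexa was lost without any 1 of 5 of its 6 libraries: siCTRL replicate 1 (adjusted p = 0.156), siCTRL replicate 2 (0.0559), siCTRL replicate 3 (0.0576), siCop1 replicate 1 (0.122) or siCop1 replicate 3 (0.0985).

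Slc30a1 moved the other way with siCop1, by log2 changes of 0.08 and 0.15 in DMSO and of 0.15 and 0.11 in KL001, without and with Dexa in turn. The libraries were separate in 3 settings and overlapped in DMSO without Dexa. It passed the test in 1 setting, KL001 without Dexa (adjusted p = 0.0483), where siCTRL libraries lay at 12.5 to 13.7 CPM and siCop1 libraries at 14.2 to 15.01 CPM. That call was lost without any 1 of 5 libraries, namely siCTRL replicate 2 (0.200) or 3 (0.0939) and siCop1 replicate 1 (0.153), 2 (0.0575) or 3 (0.0873). It was also lost with DESeq2 (0.127), with no filter on low counts (0.153), with a fit on only those groups (0.0978) and with the replicate number as a block (0.0583). In DMSO with Dexa, where it did not pass (adjusted p = 0.0585), it passed without siCop1 replicate 2, at 0.0223.

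Mt1 showed no call with siCop1 in any setting, with log2 changes of 0.08 and -0.19 in DMSO and -0.02 and -0.10 in KL001, without and with Dexa in turn. The value in DMSO with Dexa (adjusted p = 0.0540) was closest, and there the siCTRL libraries at 205 CPM or above and the siCop1 libraries at 198 CPM or below did not overlap. It passed with DESeq2 (0.0261), the replicate block (0.0437), a fit on only those groups (0.0149), no filter on low counts (2.06e-05) and without siCTRL replicate 3 (0.0211). Without siCTRL replicate 1 the log2 change was -0.12 (0.257). Mtf1 changed by -0.03 and 0.03 in DMSO and by -0.06 and -0.07 in KL001, with 95% intervals from 0.871- to 1.12-fold over the 4 settings.

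By ratio, siCop1 raised reads of Mt1 over those of Mt2 by 0.25 on the log2 scale (4 of 4 settings; exact permutation p = 5e-05, 9e-05 adjusted). Without Dexa in DMSO this ratio was 4.43 to 4.80 in siCTRL and 5.88 to 6.74 in siCop1 libraries, with no overlap. Reads of Mt2 fell against those of Slc30a1 by 0.43 (4 of 4 settings; exact permutation p = 1.25e-05, 2.81e-05 adjusted). Mt1 fell against Slc30a1 by 0.18 (3 of 4 settings; 0.00381 and 0.00381).

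Summed levels of cell markers were also set side by side for siCTRL and siCop1. Pooled over compound and Dexa, their ranges over the 12 libraries of each overlapped for every list. Within single settings some lists were separate. The 5 macrophage markers summed to 2.55 to 7.36 CPM in siCTRL and 4.32 to 15.1 CPM in siCop1 libraries, with Adgre1 and Ptprc below 1 CPM in every library. In DMSO with Dexa they were separate, at 3.19 to 5.18 CPM in siCTRL and 6.11 to 9.91 CPM in siCop1. The same held in KL001 with Dexa, at 2.55 to 4.35 and 7.49 to 15.1 CPM, while the settings without Dexa overlapped. The 5 airway epithelium markers summed to 0.864 to 5.71 CPM in siCTRL and 2.65 to 9.84 CPM in siCop1 libraries, with Scgb3a2 and Sftpc below 1 CPM throughout. The 4 endothelium markers summed to 0.621 to 1.95 CPM in siCTRL and 0.324 to 1.47 CPM in siCop1 libraries. The 6 markers of simple epithelium and liver summed to 1.56 to 7.79 CPM in siCTRL and 3.20 to 12.98 CPM in siCop1 libraries. The 5 squamous epithelium markers summed to 3.58 to 16.5 CPM in siCTRL (median 9.94) and 7.32 to 76.5 CPM in siCop1 libraries (median 10.9). In DMSO with Dexa, where Mt2 was lower with siCop1, they summed to 6.14 to 13.4 CPM in siCTRL and 13.1 to 76.5 CPM in siCop1 libraries. The 8 fibroblast markers summed to 39924 to 50770 CPM in siCTRL and 35019 to 43671 CPM in siCop1 libraries. Within each of the 4 settings their sum was lower with siCop1, without overlap. In DMSO with Dexa, for example, it was 46631 to 47124 CPM in siCTRL and 39952 to 41585 CPM in siCop1 libraries. The part of these lists in the siCop1 results was not tested. The heart muscle markers were high only in siCTRL libraries, and when those 6 libraries were left out Mt2 fell with siCop1 by as much in both settings with Dexa. Its log2 change was then -0.39 in DMSO with Dexa (adjusted p = 0.00202) and, in KL001, -0.19 without (0.353) and -0.32 with Dexa (0.00734). All 3 siCTRL DMSO libraries without Dexa were among them, so that setting gave no value. Mt1 in DMSO with Dexa then passed, at -0.21 (0.0127), and Slc30a1 in KL001 without Dexa did not, at 0.12 (0.227).

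KL001 raised Mt2 in all 4 settings, where Mt1 followed with a call in 1. For Mt2 the log2 change in siCTRL was 0.41 without (adjusted p = 0.0380) and 0.30 with Dexa (0.00872), and under siCop1 the changes were 0.53 without (0.0131) and 0.37 with Dexa (0.00244). The DMSO and KL001 libraries of Mt2 did not overlap in any setting; in siCTRL without Dexa, for example, they lay at 12.9 CPM or below and at 14.9 CPM or above. For Mt1 the changes were 0.31 (adjusted p = 0.0248), 0.16 (0.184), 0.20 (0.217) and 0.24 (0.0547) in the same order, and its libraries overlapped in siCTRL with Dexa only. KL001 changed few genes in all, 6.73% without and 10.6% with Dexa in siCTRL, and 4.09% without and 5.46% with Dexa in siCop1.

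Some of these KL001 calls rested on single libraries or settings, while that of Mt2 in siCop1 with Dexa was kept with each library left out (highest adjusted p 0.0213). For Mt2 in siCTRL without Dexa the call was lost without any of the 3 DMSO libraries (adjusted p = 0.0509, 0.128 and 0.132 without replicates 1, 2 and 3) or without KL001 replicate 2 (0.166) or 3 (0.0955), and with the replicate block (0.0551). In siCop1 without Dexa it was lost without DMSO replicate 1 (0.0748) or 3 (0.0611) or KL001 replicate 3 (0.0822), and in siCTRL with Dexa without KL001 replicate 3 (0.0511). A fit on only the groups compared lost it in siCop1 with Dexa (0.127). The Mt1 call in siCTRL without Dexa was lost without DMSO replicate 2 (0.0810) or 3 (0.128) or KL001 replicate 2 (0.145), and in a fit on only those groups (0.106). Conversely, Mt1 in siCop1 with Dexa passed with RLE scaling (0.0444), DESeq2 (0.00845) and the replicate block (0.0423), and without KL001 replicate 3 (0.0366). The log2 change kept its sign throughout, between 0.25 and 0.60 for Mt2 over all settings and libraries left out.

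Slc30a1 and Mtf1 showed no call with KL001 in any setting. For Slc30a1 the log2 changes were -0.05, 0.08, 0.03 and 0.04, with 95% intervals from 0.888- to 1.15-fold. For Mtf1 they were 0.00, 0.01, -0.03 and -0.09, with 95% intervals from 0.856- to 1.10-fold. By ratio, reads of Mt2 rose against those of Slc30a1 by 0.38 on the log2 scale with KL001 (exact permutation p = 7.5e-05, 0.000113 adjusted) and reads of Mt1 by 0.20 (0.00126 and 0.00142). Mt1 fell against Mt2 by 0.175 (0.000425 and 0.000546). All 3 ratios moved one way in 4 of 4 settings. In siCTRL without Dexa, heart muscle markers summed to 58.6, 16.8 and 23.5 CPM with DMSO and 0.855, 81.6 and 1.01 CPM with KL001. The calls of Mt1 and Mt2 there were lost without KL001 replicate 2, the highest, and equally without DMSO replicate 2 or 3. That of Mt2 was lost without DMSO replicate 1 or KL001 replicate 3 as well. Fibroblast markers, pooled over siRNA and Dexa, summed to 39952 to 50770 CPM with DMSO and 35019 to 44887 CPM with KL001. Within each of the 4 settings their sum was lower with KL001, without overlap. In siCTRL without Dexa, for example, it was 48045 to 50770 CPM with DMSO and 40880 to 44887 CPM with KL001. The part of both marker lists in the KL001 results was not tested.

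**Figure D3:**
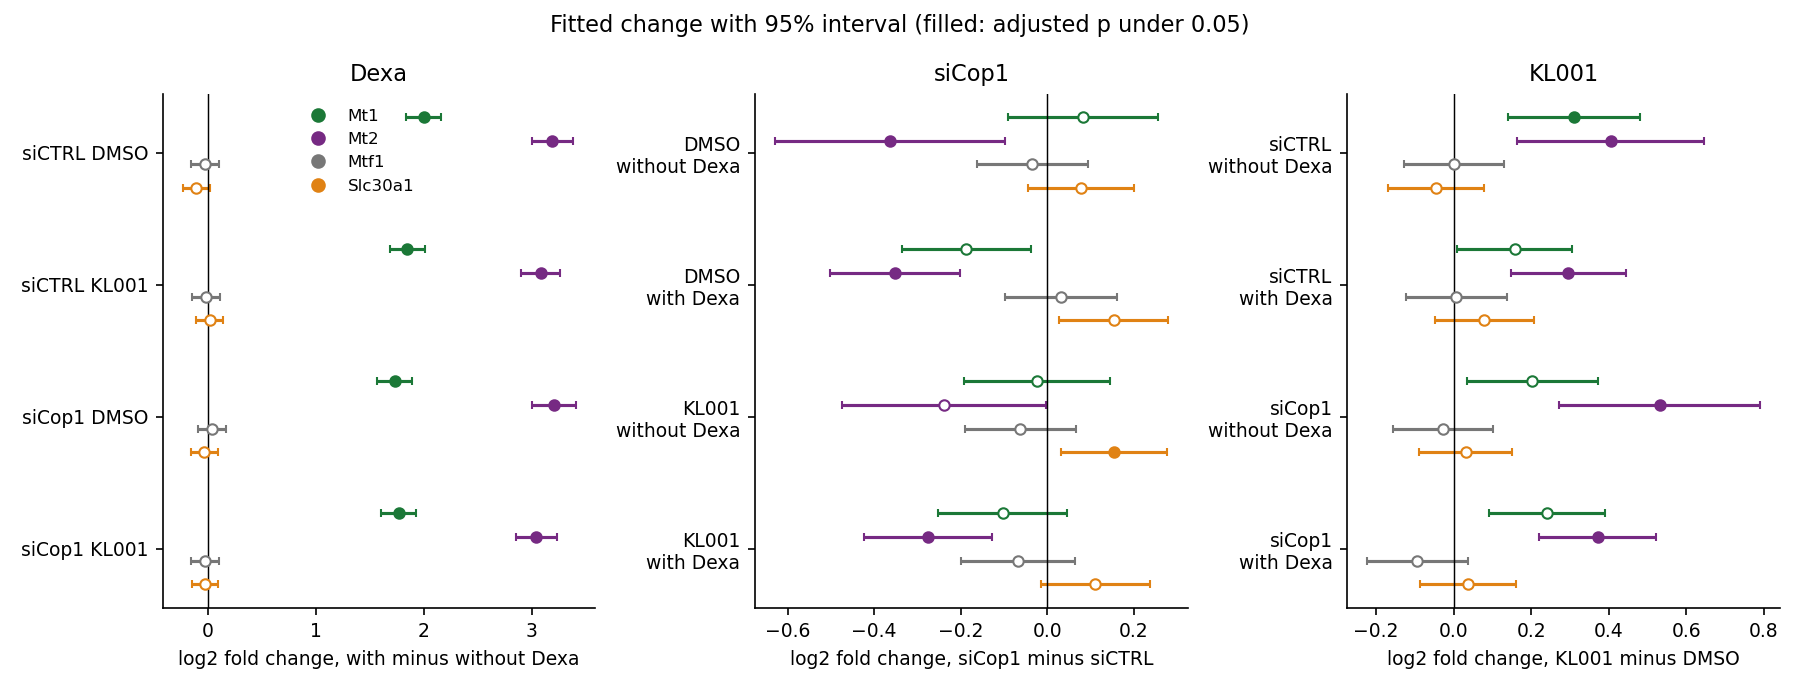
Fitted log2 fold change of each gene with Dexa (left), siCop1 (middle) and KL001 (right) in 4 settings each, with 95% intervals. Filled points have an adjusted p under 0.05, and the horizontal scales differ between panels. Mt1 and Mt2 were separate from Mtf1 and Slc30a1 with Dexa, and Mt2 was below 0 with siCop1 and above 0 with KL001 in every setting.

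Whether one factor altered the effect of another was tested for the 4 genes with 6 interaction terms, 24 in all. None passed an adjusted p of 0.05 with edgeR or with DESeq2, and 1 had an unadjusted p under 0.05. That term was Mt1 for siCop1 by Dexa in DMSO, with a log2 value of -0.27 (95% interval -0.50 to -0.04; adjusted p = 0.537). It passed only with no filter on low counts (adjusted p = 0.000885). Among all genes tested, siCop1 by Dexa passed for 0.67% in DMSO and 0.562% in KL001, KL001 by Dexa for 0% in siCTRL and 0.0677% in siCop1, and siCop1 by KL001 for 0% without Dexa and 0.0677% with Dexa. Thus the rise of Mt1 and Mt2 with Dexa was not shown to depend on siCop1 or KL001.

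The levels of each gene over the 8 groups ordered themselves accordingly. For Mt2 the lowest mean was in siCop1 DMSO without Dexa (9.31 ± 0.802 CPM, SD, n = 3), followed by siCTRL DMSO (11.9 ± 0.803), siCop1 KL001 (13.4 ± 1.25) and siCTRL KL001 (15.9 ± 0.992). The 4 groups with Dexa came in the same order, at 85.6 ± 10.5, 109 ± 8.91, 111 ± 5.89 and 134 ± 7.55 CPM. Without and with Dexa alike, siCTRL DMSO and siCop1 KL001 overlapped, and the other neighbours did not. For Mt1, without Dexa the DMSO groups (55.4 ± 4.70 in siCTRL and 58.7 ± 1.39 in siCop1) lay below the KL001 groups (67.6 ± 3.72 in siCop1 and 68.8 ± 7.76 in siCTRL), overlapping within each pair. With Dexa its means were 195 ± 2.95 CPM in siCop1 DMSO, then 222 ± 21.2 in siCTRL DMSO, 230 ± 14.4 in siCop1 KL001 and 247 ± 13.3 in siCTRL KL001. Among those, siCop1 DMSO alone was separate from its neighbour. For Mtf1 (means of 27.2 to 29.0 CPM) and Slc30a1 (12.6 to 14.6 CPM) every neighbour in the order overlapped. The 4 siCTRL means of Slc30a1, at 12.6 to 13.5 CPM, all lay below its 4 siCop1 means, at 13.97 to 14.6 CPM.

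Genes with the most similar profile were sought among 12467 tested genes of at least 1 CPM, by the root mean square difference between centred group means of log2 CPM over the 8 groups. For Mt1 they were Sgk1, a serum- and glucocorticoid-induced kinase (0.12), Tead4, a transcription factor of the Hippo pathway (0.13), and Foxred2 (0.17). For Mt2 they were Pdk4, a kinase that restrains pyruvate dehydrogenase (0.21), Il1rn, the interleukin-1 receptor antagonist (0.30), and Tsc22d3, the glucocorticoid-induced leucine zipper (0.35). Sgk1 rose with Dexa by 1.82 and Pdk4 by 3.41 on the log2 scale in siCTRL DMSO. Rises of about the size of Mt1 and Mt2 follow from the way these genes were picked. Mt1 was 48th in the order of likeness to Mt2, and Mt2 was 376th in that to Mt1. Mtf1 was closest to Faap20, Map2k7 and Sdccag3, and Slc30a1 to Nipbl, Sec24b and Dhx9, all at 0.02 or less. The centred means ran only from -0.059 to 0.035 for Mtf1 and from -0.12 to 0.091 for Slc30a1. The difference is not scaled by the size of change, so genes that hardly changed lie close to both.

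The rest of the zinc system was described by gene lists chosen with earlier results known. Of 23 other zinc transporters, 18 passed the filter, and with Dexa in siCTRL DMSO 4 were higher and 4 lower, beside 12.7% higher and 14.1% lower over all genes tested. Their median log2 change was 0.01, beside -0.01 over all genes tested. The largest rise was that of Slc39a8, a zinc, manganese and cadmium importer, from 0.433 ± 0.144 CPM to 3.32 ± 0.253 CPM (SD, n = 3) or by 2.94 on the log2 scale (adjusted p = 1.91e-11). It rose by 2.65, 1.70 and 1.49 in siCTRL KL001, siCop1 DMSO and siCop1 KL001. Slc39a14, an importer of zinc, iron and manganese, rose from 116 ± 3.06 to 183 ± 9.16 CPM, that is by 0.66 on the log2 scale, and by 0.79, 0.57 and 0.63 in the other settings.

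The remaining calls among transporters were small. Slc30a4, which moves zinc into vesicles, fell by 0.36, and the importers Slc39a6, Slc39a1 and Slc39a3 fell by 0.20, 0.20 and 0.13 on the log2 scale. Slc30a5, which loads zinc into the secretory pathway, rose by 0.10, and Slc30a9 by 0.09. The count of 8 was 5 without siCTRL DMSO replicate 1 or 2 without Dexa. With siCop1 in DMSO without Dexa 4 transporters were higher and 0 lower, among them Slc39a8 at 1.03, Slc39a10 at 0.49 and Slc30a4 at 0.45, beside 29.4% of all genes called. The count was 2 without siCop1 replicate 2. With KL001 in siCTRL without Dexa, Slc39a13 alone was called, at -0.13 (adjusted p = 0.0442), where 6.73% of all genes were. Leaving out replicate 1 or 2 of DMSO, or replicate 1 or 3 of KL001, ended that call and left 0.

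Of 6 described MTF-1 targets outside the 4 genes, 1 was higher and 1 lower with Dexa in siCTRL DMSO, with a median of -0.04, where 26.8% of all genes were called. With 29.4% called for siCop1 and 6.73% for KL001, as above, 3 of the 6 and 1 of the 6 were. Gclc, the catalytic subunit of the enzyme that starts glutathione synthesis, rose from 36.2 ± 0.832 to 75.0 ± 0.598 CPM, or by 1.05 on the log2 scale (adjusted p = 2.01e-18), and by 1.20, 0.94 and 1.02 in the other settings. Ndrg1 fell by 0.16. Csrp1, Pgf, Sepw1 (now Selenow) and Slc39a10 did not pass, at -0.04, -0.05, 0.08 and -0.05. With siCop1 in DMSO without Dexa, Slc39a10 rose by 0.49, and Csrp1 and Ndrg1 fell by 0.59 and 0.34. With KL001 in siCTRL without Dexa, Sepw1 alone was called, at 0.21. The list does not record whether MTF-1 raises or lowers each target. Its counts and median therefore show no direction of MTF-1 action.

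Of 8 copper genes, Slc31a2, a copper transporter of endosomes, was the only one called with Dexa in siCTRL DMSO, at 0.16 (adjusted p = 0.0457), and the median was 0.06. The call was lost with no filter on low counts, with DESeq2, with the replicate block and in a fit on only those groups. With siCop1 in DMSO without Dexa it was again the only one, at 0.15 (adjusted p = 0.0465), and with KL001 in siCTRL without Dexa none was called. Over all genes the called shares in these comparisons were 26.8%, 29.4% and 6.73%. Both siCop1 and Dexa were compared with the same siCTRL DMSO libraries.

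Of 10 oxidative stress genes of the Nrf2 programme, Gclc was the only one higher with Dexa in siCTRL DMSO. The 5 lower genes fell slightly: Slc7a11 by 0.37, Txnrd1 by 0.28, Gsr by 0.23, Osgin1 by 0.20 and Hmox1 by 0.17 on the log2 scale. The list's median was -0.13. With siCop1 in DMSO without Dexa 2 were higher, Txnrd1 at 0.21 and Srxn1 at 0.14. In that comparison 4 were lower, led by Hmox1 at -0.39 and Nqo1 at -0.29. With KL001 in siCTRL without Dexa, Slc7a11 at 0.30 and Hmox1 at 0.13 were higher and none lower. The called counts of 6, 6 and 2 of the 10 stand beside 26.8%, 29.4% and 6.73% of all genes.

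For comparison, all 10 genes of a glucocorticoid response list rose with Dexa in siCTRL DMSO, with a median log2 change of 2.47. Over all genes tested 12.7% were higher, and the median was -0.01. Fkbp5, a co-chaperone of the glucocorticoid receptor, rose by 4.30, Zbtb16 by 4.11 and Errfi1 by 3.13, so that Mt2 at 3.19 and Mt1 at 2.0 lay within this list's span of 0.49 to 4.30. These genes are known to respond to glucocorticoids, and they were chosen with results known. The receptor transcript Nr3c1 fell by 0.64, from 108 ± 8.81 to 69.5 ± 6.91 CPM. With siCop1 in DMSO without Dexa 2 of the 10 were higher and 2 lower, where 29.4% of all genes were called. With KL001 in siCTRL without Dexa 1 was higher and 2 lower, where 6.73% were. In the settings with Dexa, siCop1 left 0 higher and 7 lower in DMSO (median -0.20). In KL001 with Dexa it left 0 higher and 5 lower (median -0.12). Over all genes tested, 16.7% and 16.3% were lower in these 2 comparisons. Any link to the lower Mt2 there was not tested.

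**Figure D4:**
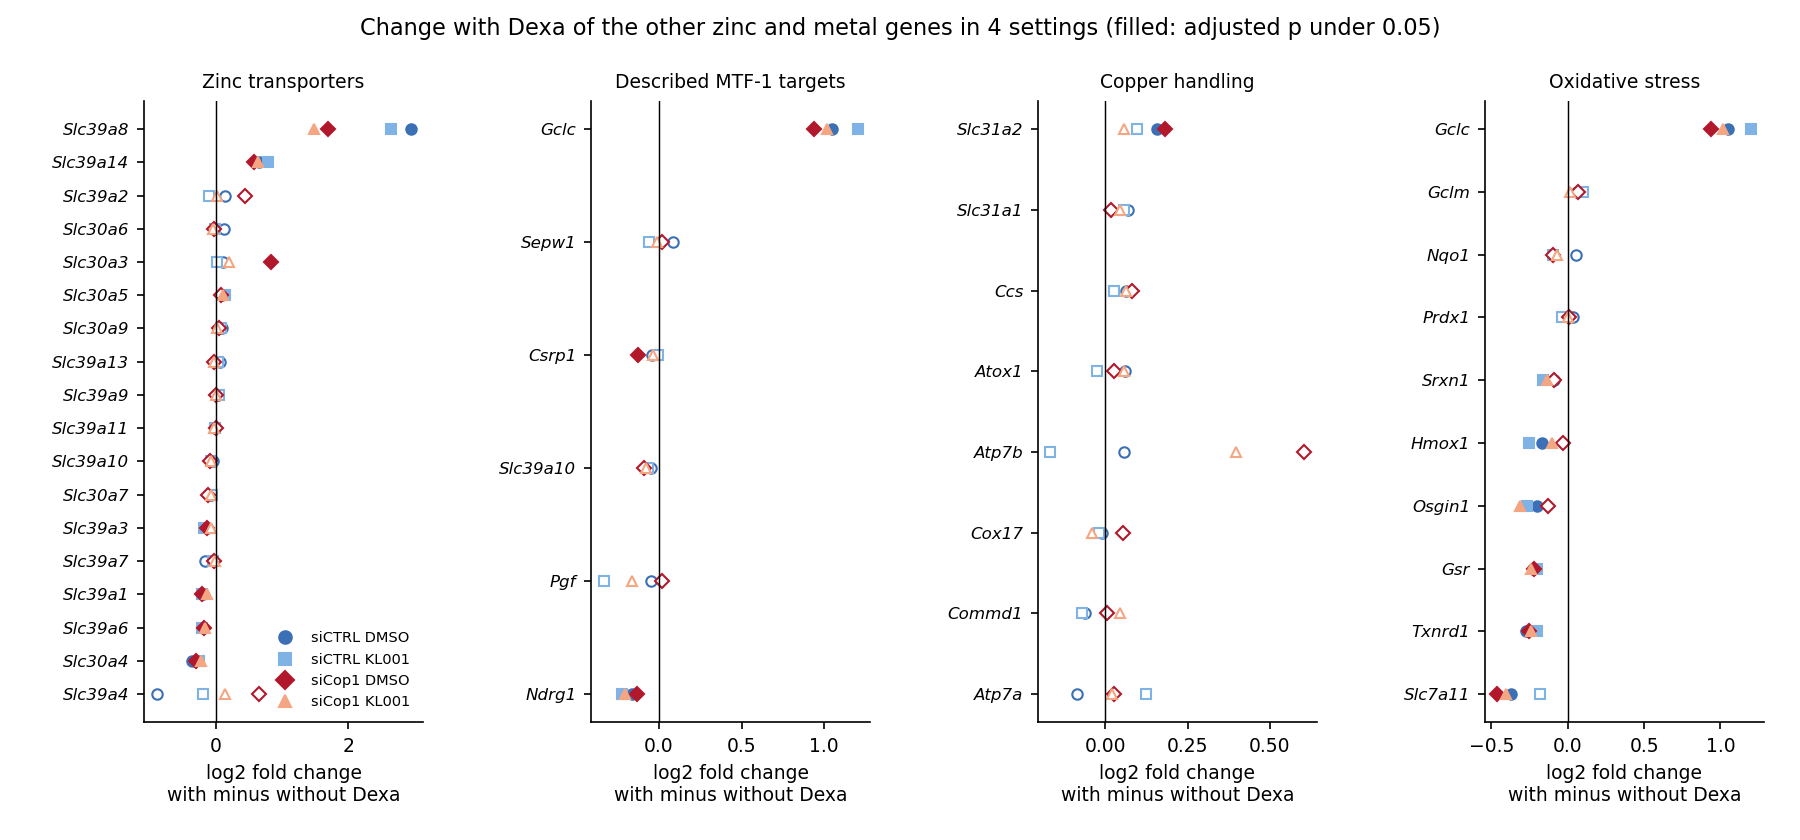
Log2 fold change with Dexa of the other zinc transporters, described MTF-1 targets, copper genes and oxidative stress genes, 1 gene per line, in the 4 combinations of siRNA and compound. Filled symbols have an adjusted p under 0.05, and the scales differ between panels. Slc39a8, Slc39a14 and Gclc were to the right of 0 in all 4 settings, at 0.57 or more, while most other genes lay close to 0.

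How reads were assigned limits some of these values. The kit kept strand, but whether counting used it is not given in the sources used here. Mt2 shares 45.9% of its 50-base stretches with Gm45774 on the opposite strand, which is not a row of the table used here. Mtf1 shares 7.55% with 1110065P20Rik, at 528 to 900 reads a library, and Slc30a1 shares 8.01% with 1700034H15Rik, at 3 to 18 reads. If strand was ignored, reads of such partners cannot be told apart.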

How the data were processed

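RNA was measured in 24 libraries of mouse embryonic fibroblasts, grouped by the sample titles. The authors deposited raw read counts per gene, made with STAR 2.4.5a and featureCounts of Subread 1.4.6-p3 among the tools named, on GRCm38 (mm10), per the submitters' processing notes, which give no order or settings. Libraries were TruSeq stranded mRNA, single reads of 50 bases, per the labels' protocols. The authors also deposited a normalized table (unit: signal), whose values equal raw counts divided by 1 size factor per library (100% within 0.011, factors 0.862 to 1.117), and which was used for that check only. Library totals had a median of 25337292 counts, 0 library pairs were identical, and replicates differed by more than sampling noise (chi-square per degree of freedom 1.57 to 8.54). PCR copies were not told apart.

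Tests used the raw counts in R 4.3.3 with edgeR 4.0.16: filterByExpr (minimum count 10, total 15; 14772 genes kept), TMM, robust quasi-likelihood fit with 1 mean per group over all 24 libraries, Benjamini-Hochberg adjustment over all genes, and changed at an adjusted p under 0.05. The fits were tested on simulated data. CPM are TMM-scaled, and 95% intervals come from the fitted standard errors. Ratios between genes used log2 counts plus 0.5 and an exact permutation test. Named were the 4 genes, Rfwd2, up to 6 genes per list changed with Dexa and up to 3 changed with siCop1 or KL001 (each in siCTRL or DMSO without the other factors), and the 3 most similar genes to each. Some list members were named after their values were seen, to complete a count. The genes and lists were chosen with earlier results of these data known. The alternatives were RLE scaling, no filter, DESeq2 1.42.0, the replicate block, a fit restricted to the compared groups, each library left out, a pseudocount of 5 and, added after seeing the data, leaving out 6 siCTRL libraries over 5 CPM of heart muscle markers.

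The labels do not say that replicate numbers mark a shared culture or day. Correlations of same-numbered deviations ran from -0.29 to 0.46 over 12 comparisons and all 3 exceeded 0.1 in 2, Dexa in siCTRL KL001 and KL001 in siCTRL with Dexa, where the block changed no call of the 4 genes.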

Additional observations from a re-analysis of the deposited data

How the results depend on the processing

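With 1 library left out at a time, and settings in the order of the report, the log2 change with Dexa ran from 1.93 to 2.06, 1.79 to 1.94, 1.71 to 1.75 and 1.72 to 1.82 for Mt1 and from 3.14 to 3.25, 3.04 to 3.14, 3.10 to 3.27 and 2.99 to 3.12 for Mt2, with all 8 calls kept, as with RLE scaling, no filter, DESeq2, the replicate block and a fit on the compared groups. For Mtf1 it ran from -0.089 to 0.030, -0.051 to 0.030, 0.028 to 0.064 and -0.097 to 0.015, and for Slc30a1 from -0.12 to -0.051, -0.014 to 0.058, -0.076 to 0.020 and -0.043 to -0.0017, with no call. With siCop1 (DMSO without and with Dexa, then KL001 without and with) the ranges were 0.03 to 0.15, -0.25 to -0.12, -0.076 to 0.071 and -0.15 to -0.05 for Mt1, -0.44 to -0.30, -0.45 to -0.29, -0.32 to -0.18 and -0.33 to -0.24 for Mt2, -0.098 to 0.017, 0.0055 to 0.063, -0.10 to 0.0089 and -0.12 to -0.031 for Mtf1, and 0.05 to 0.12, 0.10 to 0.20, 0.12 to 0.19 and 0.08 to 0.13 for Slc30a1. With KL001 (siCTRL without and with Dexa, then siCop1 without and with) they were 0.21 to 0.38, 0.11 to 0.23, 0.17 to 0.25 and 0.21 to 0.29 for Mt1, 0.36 to 0.47, 0.25 to 0.36, 0.45 to 0.60 and 0.30 to 0.47 for Mt2, -0.063 to 0.044, -0.022 to 0.044, -0.068 to 0.044 and -0.15 to -0.057 for Mtf1, and -0.081 to -0.013, 0.036 to 0.11, -0.016 to 0.062 and -0.014 to 0.065 for Slc30a1. Of these, leaving out siCop1 KL001 replicate 3 with Dexa gave a call for Mt1 with KL001 (0.29), and the other changed calls stand in the report. All 9 ratio results kept their sign and call with each library left out, with the replicate block and with a pseudocount of 5, the alternatives run for them.

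Some calls differed from those reported, and the cause was not tested. With no filter on low counts, Mt1 passed for siCop1 with Dexa in DMSO (-0.19) and KL001 (-0.11), for KL001 in siCTRL with Dexa (0.16), for KL001 in siCop1 without (0.21) and with Dexa (0.24), and for siCop1 by Dexa in DMSO (-0.28), which gave 1 interaction call. Mt2 passed for siCop1 in KL001 without Dexa (-0.23, also -0.23 with DESeq2), and Slc30a1 did not (0.16). DESeq2 called Mt1 for siCop1 in DMSO with Dexa (-0.18) and KL001 in siCop1 with Dexa (0.24, as did RLE scaling at 0.24), did not call Slc30a1 for siCop1 in KL001 without Dexa (0.16), and put Mtf1 for KL001 in siCTRL without Dexa at -0.00022. A fit on only the groups compared gave calls for Mt1 with siCop1 in DMSO with Dexa (-0.18) and with KL001 in siCop1 without (0.20) and with Dexa (0.24), and lost Mt1 with KL001 in siCTRL without Dexa (0.31), Mt2 with KL001 in siCop1 with Dexa (0.37) and Slc30a1 with siCop1 in KL001 without Dexa (0.16). Leaving out the 6 siCTRL libraries with heart muscle markers turned Mt1 for siCop1 in KL001 without Dexa to 0.073, and gave -0.21 and 0.12 for the Mt1 and Slc30a1 values in the report.

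The replicate block gained Mt1 for siCop1 in DMSO with Dexa (-0.18) and KL001 in siCop1 with Dexa (0.24), and lost Mt2 for KL001 in siCTRL without Dexa (0.41) and Slc30a1 for siCop1 in KL001 without Dexa (0.15); it changed no other call of the 4 genes or the ratios. 13 of 24 libraries correlated best with their own number.

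List counts moved as follows. Copper genes called with Dexa went from 1 to 0 with no filter, DESeq2, the replicate block or a fit on the compared groups, and with siCop1 from 1 to 2 with RLE scaling and to 0 with DESeq2 or the replicate block. Zinc transporters called with Dexa went from 8 to 5 with no filter or the compared groups alone, and with KL001 from 1 to 0 in those fits and with the replicate block. In the compared groups alone, KL001 called 0 MTF-1 targets and 0 oxidative stress genes. With 1 library left out, transporter counts ran from 5 to 8 with Dexa, 2 to 4 with siCop1 and 0 to 1 with KL001, and interaction calls stayed at 0. Mt2 without Dexa (223 reads at least) and Slc30a1 (292 at least) had the least depth.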
